A study of Arabidopsis thaliana with 8 samples.

Results

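EXLA1, EXLA2, EXO and XTH19 are 4 cell wall genes of Arabidopsis thaliana, and their transcripts were followed through leaves of a transgenic and a wild-type line with and without salt. EXLA1 (AT3G45970), EXLA2 (AT4G38400), EXO (AT4G08950) and XTH19 (AT4G30290) were taken by the probe sets annotated to them, the one with the highest mean where a gene has several. Each gene had 1 probe set of its own, so they make up 4 of 22746 probe sets. They were picked because earlier results of these data placed EXLA1 and XTH19 among the large salt differences of the wild type, and EXLA1, EXO and EXLA2 among the large differences between the lines without salt. For the 4 genes, values and counts of calls in these 2 contrasts are therefore a description and not a test.

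The 8 arrays hold leaf RNA of 4 groups, 2 replicate pots each: M6PR plants with 100 mM NaCl (M6PR 100 mM), M6PR plants without it (M6PR 0 mM), Col plants with 100 mM NaCl (Col 100 mM) and Col plants without it (Col 0 mM). M6PR plants carry the gene of mannose-6-phosphate reductase, an enzyme of mannitol synthesis in celery, and the series title describes them as producing mannitol and tolerating salt. All plants grew in short days and were sampled 20 days after sowing. NaCl in dilute Hoagland solution was given from day 14 in steps of 50 mM every 2 days, so salted plants had 6 days of it, and each array pools developed leaves of at least 15 seedlings. The promoter of the transgene and the number of independent transgenic lines are not given in the sources used here. In their labels the M6PR samples are described as Ws, which is not the Col background of the wild type, and the Col arrays also belong to another series, so accession, array set and transgene cannot be told apart between the lines.

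The plant cell wall is a network of cellulose, xyloglucan and pectin that has to yield before a cell can grow. Expansins loosen it without cutting its polymers. The expansin-like A proteins EXLA1 and EXLA2 have the domains of expansins, but a loosening activity of their own is not established. Xyloglucan endotransglucosylase/hydrolases (XTHs) cut xyloglucan chains and rejoin them. EXO (EXORDIUM) is an extracellular protein known in Arabidopsis as a brassinosteroid-responsive promoter of leaf growth. In leaves, such genes are known for responding to hormones, touch, darkness and stress.

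Values are log2 intensities, so a step of 1 is a 2-fold change. Precision is limited by having 2 arrays a group, and levels of different probe sets are not set against each other. Between 27.9% and 29.2% of probe sets lay at the lowest value of the table on each array (within 0.01). A level of log2 4 is used as background, and where the dimmer group lay below it the fold is a lower bound against it. Of 20 leaf markers looked for, 2 had a probe set of their own, and both were bright in all groups. The group means of RCA, which activates Rubisco, lay between 14.53 and 14.76. Those of SBPASE, a Calvin cycle enzyme, lay between 13.22 and 13.96. SBPASE was lower in Col 100 mM than in Col 0 mM (−0.74, limma adjusted p 0.0452), which changed with the array left out. Its part in the results was not tested. Of 12 root markers looked for, 2 had a probe set of their own. These root hair expansins, EXPA7 and EXPA18, had group means of at most 2.26. The array labelled M6PR 100 mM replicate 1 resembled unsalted arrays. Of 384 probe sets whose salted and unsalted values were over 1 log2 unit apart in the remaining 7 arrays, it took the salted side in 11.5%. Across probe sets its r was 0.983 to M6PR 0 mM replicate 1, 0.981 to each Col 0 mM array and 0.982 to its own replicate. Values without it are given beside the differences of the 4 genes that use M6PR 100 mM.

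All 4 genes were lowest in unsalted wild-type leaves, and each of the 6 other arrays lay above both Col 0 mM arrays. The gap between the lowest of the 6 and the higher Col 0 mM array was 6.30 log2 units for EXLA1, 4.96 for EXO, 1.97 for EXLA2 and 1.23 for XTH19. Over all probe sets 6.96% showed this order and 1.4% showed it with a gap of at least 1. Since the genes were chosen on contrasts with Col 0 mM, nothing is read from these shares. In leaf RNA, a change in the share of a cell type and a change in RNA per cell cannot be told apart.

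**Figure D1:**
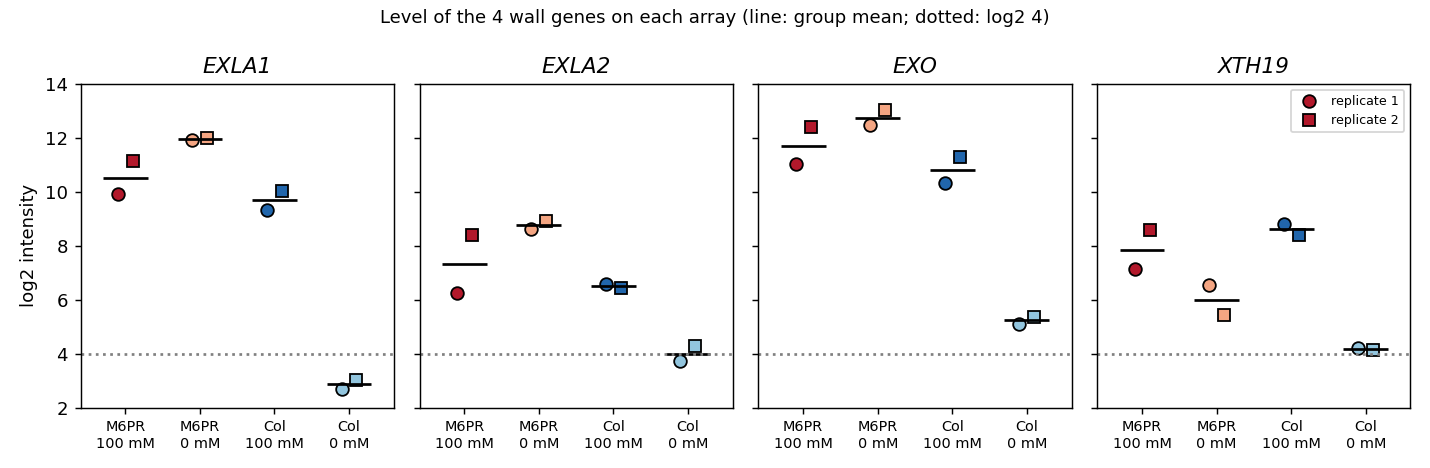
Log2 intensity (y axis) of EXLA1, EXLA2, EXO and XTH19 on each of the 8 arrays, by group (x axis); circles and squares are replicates 1 and 2, black lines the group means and the dotted line the background level of log2 4. EXLA1, EXLA2 and EXO were highest in M6PR 0 mM, XTH19 was highest in Col 100 mM, and all 4 were lowest in Col 0 mM.

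EXLA1, the expansin-like gene with the widest range of the 4, had 9.90 and 11.12 in M6PR 100 mM, 11.90 and 11.97 in M6PR 0 mM, 9.34 and 10.04 in Col 100 mM, and 2.70 and 3.04 in Col 0 mM. Unsalted M6PR leaves were thus the highest and were apart from every other array, while M6PR 100 mM and Col 100 mM overlapped. Salted Col leaves exceeded unsalted ones by 6.82 (SE 0.49), at least 51.6-fold because Col 0 mM lay below background. Without salt M6PR exceeded Col by 9.06 (SE 0.49), at least 245-fold. The gene was off the background in 6 arrays and below it in 2. Within M6PR the difference with salt was −1.43 (SE 0.49), a level 2.69-fold lower than without salt, and −0.815 without M6PR 100 mM replicate 1. Under salt M6PR and Col differed by 0.82 (SE 0.49), and by 1.43 without that array.

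EXLA2, its relative in the same subfamily, had 6.26 and 8.39 in M6PR 100 mM, 8.62 and 8.90 in M6PR 0 mM, 6.60 and 6.44 in Col 100 mM, and 3.71 and 4.30 in Col 0 mM. The order of the groups was that of EXLA1, with the salted groups again overlapping. The replicates of M6PR 100 mM were 2.13 log2 units apart, one level with Col 100 mM and the other close to M6PR 0 mM. Salted Col leaves were 2.51 (SE 0.75) or 5.70-fold above unsalted ones, and unsalted M6PR leaves were 4.76 (SE 0.75) or 27.0-fold above unsalted Col. The Col 0 mM mean of 4.01 lay at the background level, and with a background of log2 5 these folds became lower bounds of 2.86 and 13.6. Within M6PR the difference with salt was −1.44 (SE 0.75), and −0.37 without M6PR 100 mM replicate 1.

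EXO had 11.02 and 12.38 in M6PR 100 mM, 12.46 and 13.02 in M6PR 0 mM, 10.33 and 11.29 in Col 100 mM, and 5.10 and 5.37 in Col 0 mM. All arrays were above background, so its folds are measured on both sides. Salted Col leaves exceeded unsalted ones by 5.57 (SE 0.60), or 47.6-fold, and unsalted M6PR leaves exceeded unsalted Col by 7.50 (SE 0.60), or 181-fold. These 2 contrasts subtract the same Col 0 mM arrays. Within M6PR the difference with salt was −1.04 (SE 0.60), and −0.36 without M6PR 100 mM replicate 1. The replicates of the salted groups overlapped, as for both expansin-like genes.

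XTH19, one of a small subclade of XTHs that also holds XTH17, XTH18 and XTH20, had 7.14 and 8.57 in M6PR 100 mM, 6.56 and 5.44 in M6PR 0 mM, 8.79 and 8.41 in Col 100 mM, and 4.21 and 4.14 in Col 0 mM. Here the salted groups were the higher ones in each line, with no overlap between salted and unsalted arrays of a line, and M6PR 0 mM lay between them and Col 0 mM. Salted Col leaves exceeded unsalted ones by 4.42 (SE 0.63), or 21.5-fold. Without salt M6PR was above Col by 1.82 (SE 0.63), or 3.54-fold. Within M6PR the difference with salt was 1.86 (SE 0.63), or 3.63-fold, and 2.57 without M6PR 100 mM replicate 1. Its sign was thus opposite to that of EXLA1, EXLA2 and EXO in the same arrays. Under salt M6PR and Col differed by −0.74 (SE 0.63), and by −0.03 without that array. The difference between the genes was not tested.

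**Figure D2:**
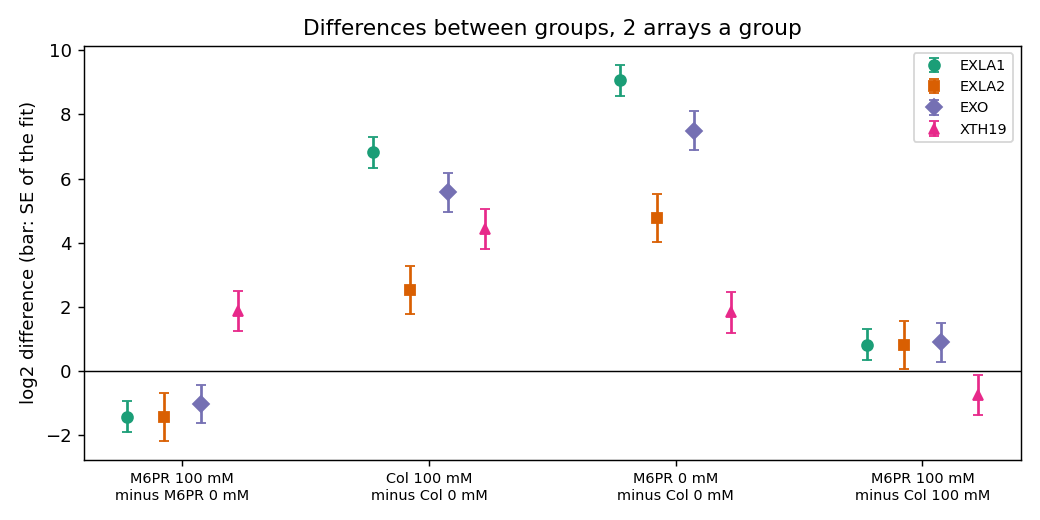
Log2 differences (y axis) of the 4 genes in the 4 pairwise contrasts (x axis), with the SE of the fit over all 8 arrays as bars, 2 arrays a group. In M6PR 100 mM minus M6PR 0 mM, EXLA1, EXLA2 and EXO lie between −1.44 and −1.04 and XTH19 at 1.86; in M6PR 0 mM minus Col 0 mM, all 4 are above 0.

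Calls were made with limma at a Benjamini-Hochberg adjusted p under 0.05 over all 22746 probe sets. For salt in Col, 3 of the 4 genes (EXLA1, EXO and XTH19) were called higher, where 2.25% of all probe sets were. For M6PR against Col without salt, 3 of 4 (EXLA1, EXO and EXLA2) were called higher, where 3.97% were. The choice of the genes used both contrasts, so these counts only describe it. Non-overlapping arrays were found for 23.7% (higher) in salt in Col, 18.1% (higher) between the lines at 0 mM, and 15.7% (lower) in salt in M6PR. With each of the 8 arrays left out in turn, the salt in Col call was lost in 2 cases for EXLA1, 5 for EXO and 6 for XTH19 and the call between the lines at 0 mM in 0 cases for EXLA1, 2 for EXO and 6 for EXLA2. The median difference of the 4 genes was 4.998 for salt in Col and 6.13 between the lines without salt, while the median over all probe sets was 0.00 in each. For salt in M6PR and for the lines under salt, 0 of the 4 were called, where limma called 0.171% and 0.136% of all probe sets and 10.6% and 13% had an unadjusted p under 0.05.

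Differences that share no array with the contrast in which a gene stood out could be tested for 3 genes, a choice made after the values were seen. XTH19 did not pass for salt in M6PR (1.86, limma adjusted p 0.413, 0.216 to 1 over the alternatives), although both M6PR 100 mM arrays lay above both M6PR 0 mM arrays, an order that 12.7% of all probe sets showed. EXO was 0.89 (SE 0.60) higher in M6PR than in Col under salt and did not pass (limma adjusted p 0.567, 0.215 to 1 over the alternatives). Its difference was 1.57 without replicate 1 of M6PR 100 mM and 0.21 without replicate 2. EXLA2 was 0.81 (SE 0.75) higher in that contrast and did not pass (limma adjusted p 0.707, 0.234 to 1 over the alternatives). Leaving out replicate 1 of M6PR 100 mM gave 1.87 and leaving out replicate 2 gave −0.25, so the sign for EXLA2 rested on single arrays. For EXO, 1 of 2 M6PR 100 mM arrays exceeded both Col 100 mM arrays, and the same held for EXLA2.

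The spread between replicates was itself part of the pattern. In M6PR 100 mM, replicate 2 exceeded replicate 1 for all 4 genes, by 1.22 for EXLA1, 2.13 for EXLA2, 1.37 for EXO and 1.43 for XTH19. The median absolute replicate difference of the 12752 probe sets above background in this group was 0.36, and 9.22%, 1.87%, 7.08% and 6.23% of them differed by at least as much as EXLA1, EXLA2, EXO and XTH19. For EXLA1, EXLA2 and EXO the array with the lower levels, replicate 1, was the one farther from M6PR 0 mM, while for XTH19 it was the one nearer to M6PR 0 mM. In M6PR 0 mM the genes did not shift together: XTH19 was 1.12 lower in replicate 2, and EXLA1, EXLA2 and EXO were 0.07, 0.28 and 0.56 higher. In Col 100 mM, replicate 2 was 0.70 higher for EXLA1 and 0.96 higher for EXO, but lower by 0.16 for EXLA2 and by 0.39 for XTH19. EXLA1 and EXO thus shifted in the same direction between the replicates of each of the 4 groups.

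**Figure D3:**
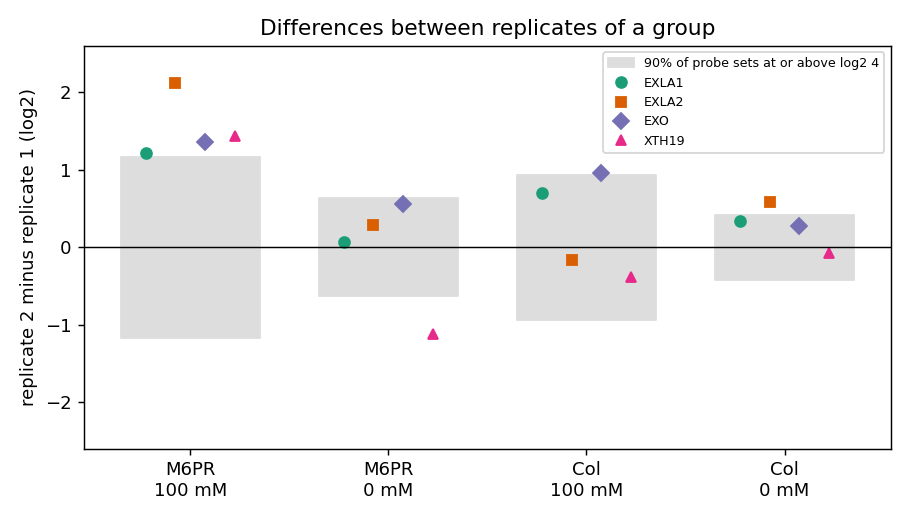
Difference between the replicates of each group (y axis, replicate 2 minus replicate 1, log2) for the 4 genes, by group (x axis); grey bands span plus and minus the 90th percentile of the absolute difference over probe sets at or above log2 4. In M6PR 100 mM all 4 genes lie above the band of 1.17, and in M6PR 0 mM XTH19 lies below the band of 0.64.

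Among the 4, EXLA1 and EXO had the most similar profiles (Pearson r 0.998 over the 8 arrays), and both were close to EXLA2 (0.943 and 0.948). XTH19 was the least like the others (0.672 with EXLA1, 0.664 with EXO and 0.496 with EXLA2). The arrays fall into 4 groups with Col 0 mM far from the rest, and the genes were chosen for their differences from it, so these values describe likeness and carry no test. By the same measure, among 1670 genes with a range of at least 2 log2 units and a group mean of at least log2 4, the 3 most like EXLA1 were AT3G15450 (0.999), EXO and AT1G69890 (0.995), and the 3 most like EXO were EXLA1, AT3G15450 (0.997) and AT1G69890 (0.992). EXLA1 and EXO thus ranked among each other's 3 closest. AT3G15450 had 11.82 and 13.16 in M6PR 100 mM, 13.83 and 13.76 in M6PR 0 mM, 11.49 and 12.36 in Col 100 mM, and 6.60 and 6.81 in Col 0 mM. Like both wall genes, it was higher in replicate 2 than in replicate 1 of either salted group.

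The genes most like EXLA2 were AT4G11000 (0.993), AT4G24060 (0.992) and AT2G36410 (0.991). The genes most like XTH19 were others again: TBL39, of the TRICHOME BIREFRINGENCE-LIKE family (0.963), AT2G39650 (0.953) and AR781 (0.952). AR781 had 9.25 and 10.12 in M6PR 100 mM, 9.48 and 9.14 in M6PR 0 mM, 10.85 and 10.81 in Col 100 mM, and 7.08 and 7.25 in Col 0 mM. It shared with XTH19 the highest level in Col 100 mM and the lowest in Col 0 mM, but its M6PR groups overlapped, and those of XTH19 did not. To the average of the 4 genes, each centred on its mean, the closest were AT2G16660 (0.993), AT1G69890 (0.993), AT2G25735 (0.992), AT3G15450 (0.992), AT1G66180 (0.990), AT3G55840 (0.988), AT1G25400 (0.988) and AT2G27500 (0.988). In all, 124 of the 1670 genes (7.43%) reached an r of 0.9 to this average and 95 (5.69%) an r of −0.9 or lower. Of the 8 closest, 3 were again among the 8 closest without M6PR 100 mM replicate 1 and 4 by the 4 group means.

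**Figure D4:**
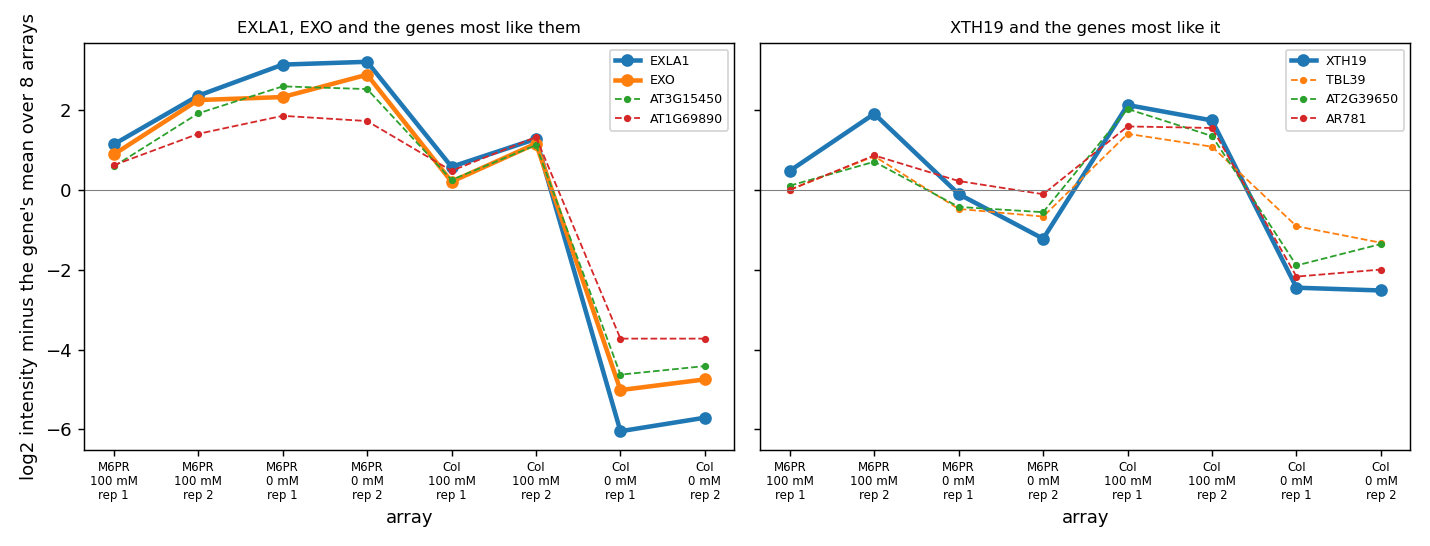
Log2 intensity minus each gene's mean over the 8 arrays (y axis) by array (x axis); thick lines are EXLA1 and EXO (left) and XTH19 (right), dashed lines the genes most like them by Pearson r. The left profiles peak in M6PR 0 mM and drop in Col 0 mM; XTH19 and the genes like it peak in Col 100 mM.

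The relatives of the 4 genes were looked at by family. Of 9 EXO family genes looked for, 1, EXO itself, had a probe set annotated to it alone. Of 34 expansin superfamily genes in RefSeq, 18 had a probe set of their own and 10 reached background in a group. EXLA3, the neighbour of EXLA1 on the chromosome with 0 protein-coding genes between them, stayed below background in all groups (group means 3.38 in M6PR 100 mM, 3.66 in M6PR 0 mM, 3.57 in Col 100 mM and 2.53 in Col 0 mM). EXLB1, of the related EXLB subfamily, varied little (6.32 to 6.97 over the group means). It was called in no contrast with all 8 arrays (limma adjusted p 0.0690 for salt in Col), which changed with the array left out. Without salt, 0 of the 16 expansins other than EXLA1 and EXLA2 were called higher in M6PR and 4 lower (limma), where 3.06% of all probe sets were called lower. Their median difference was −0.095, and 7 of the 8 that reached background had a negative one.

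The 3 named falls were alpha- and beta-expansins, the classes that hold the wall-loosening proteins. EXPB1 fell to 6.45 ± 0.35 in M6PR 0 mM, against 9.15 ± 0.0026 in Col 0 mM (SD, n = 2 each; −2.71, 6.53-fold, limma adjusted p 0.0433). EXPA4 fell to 7.79 ± 0.25, against 10.14 ± 0.025 in Col 0 mM (−2.35, 5.10-fold, limma adjusted p 0.0199). EXPA15 fell to 3.57 ± 0.31, below background, against 5.79 ± 0.035 in Col 0 mM (−2.22, at least 3.46-fold, limma adjusted p 0.0305). The fourth call, EXPA20, was below background in both groups. EXPA8, a further alpha-expansin, had 5.90 and 9.45 as group means in M6PR 0 mM and Col 0 mM. It missed the threshold with all 8 arrays (−3.56, limma adjusted p 0.0522), which changed with the array left out. With single arrays left out, the call held in 2 of 8 cases for EXPA4, 2 for EXPA15, 4 for EXPA20 and 0 for EXPB1. For salt in Col, 0 of the 16 were called higher and 1 lower (EXPA20), where limma called 2.99% of all probe sets lower. Of the 8 that reached background, 6 had a negative difference, with EXPB1 at −2.53 and EXPA4 at −1.35 (limma adjusted p 0.0558 and 0.0646). Salt in Col subtracts the same Col 0 mM arrays as the contrast between the lines without salt, so the signs are not separate observations. Neither EXPB1 nor EXPA4 passed with all 8 arrays, and whether they passed changed with the array left out.

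Of the XTH family 10 genes had a probe set of their own and 6 reached background in a group. XTH18, the chromosomal neighbour of XTH19 with 0 protein-coding genes between them and a member of the same subclade, had 3.66 and 7.07 in M6PR 100 mM, 7.97 and 7.45 in M6PR 0 mM, 7.31 and 6.57 in Col 100 mM, and 3.19 in both Col 0 mM arrays. Unlike XTH19 it was highest in M6PR 0 mM, and its salted M6PR replicates lay far apart, 1 of them below background. XTH18 passed in no contrast with all 8 arrays (limma adjusted p 0.125 between the lines without salt and 0.138 for salt in Col). Whether it passed changed with the array left out. The differences then ran from 4.26 to 4.79 between the lines without salt and from 3.38 to 4.12 for salt in Col. For salt in M6PR they ran from −4.05 to −0.64. XTH20, also of the subclade, was at or near the lowest value of the table in all groups, and XTH17 was not analysed here. Whether the probes of XTH18 and XTH19 tell the transcripts of these similar genes apart was not tested.

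XTH16 was high in both salted Col arrays (8.47 and 7.50) and low in Col 0 mM (3.88 and 4.05). It was also high in M6PR 0 mM (7.22 and 7.52), and its M6PR 100 mM replicates lay apart (4.96 and 7.58). It missed the threshold for salt in Col with all 8 arrays (4.02, limma adjusted p 0.0846), which changed with the array left out. XTH33 differed from XTH19 in another way: its mean was 3.96 in Col 100 mM and 3.53 in Col 0 mM, against 8.22 in M6PR 0 mM. In Col its means were thus below background with and without salt. The difference from Col 0 mM missed the threshold with all 8 arrays (4.70, limma adjusted p 0.0618), which changed with the array left out. The XTH family calls other than XTH19 were EXGT-A3, an endoxyloglucan transferase, which was higher in M6PR without salt (12.69 against 10.87 in Col 0 mM, limma adjusted p 0.0488), and XTH32, which was lower (9.65 against 11.26 in Col 0 mM, limma adjusted p 0.0202). Thus 1 of the other 9 was called higher and 1 lower, where limma called 3.97% and 3.06% of all probe sets. Of the 5 that reached background, 4 had a positive difference and 1 a negative one between the lines without salt, and the same numbers held for salt in Col, the direction of XTH19 in both. For salt in M6PR, 1 was positive and 4 were negative, where XTH19 was positive. Both calls were lost with single arrays left out (limma adjusted p up to 0.194 for EXGT-A3 and 0.105 for XTH32). For salt in M6PR and between the lines under salt, limma called 0 of the expansin and XTH genes with all 8 arrays, and up to 4 in each contrast with 1 array left out.

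**Figure D5:**
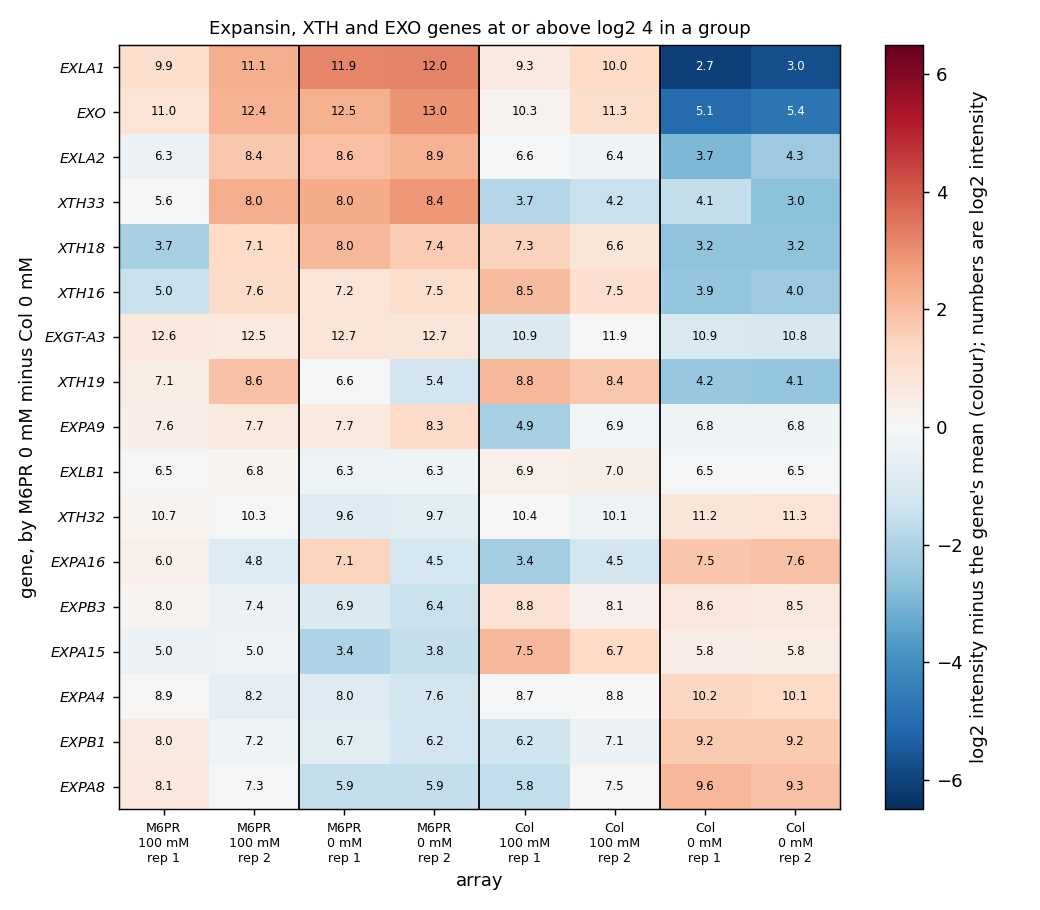
Log2 intensity (numbers) of the 17 expansin, XTH and EXO genes that reached log2 4 in a group, on each of the 8 arrays (columns); colour shows the deviation from the gene's own mean and rows are ordered by M6PR 0 mM minus Col 0 mM. EXLA1, EXO and EXLA2 head the order, and EXPA4, EXPB1 and EXPA8 close it.

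Of 20 genes of xyloglucan and cellulose synthesis that were looked for, 2 had a probe set of their own. CSLC04 makes the glucan backbone of xyloglucan. Its means were 10.54 in M6PR 100 mM, 11.01 in M6PR 0 mM, 10.41 in Col 100 mM and 9.25 in Col 0 mM. The order of these means was that of EXLA1 and EXO, but the M6PR groups overlapped, and so did the salted groups. For salt in M6PR the difference was −0.47, and 0.05 without M6PR 100 mM replicate 1, so this order rested on that array. CSLC04 passed in no contrast with all 8 arrays (limma adjusted p 0.0825 between the lines without salt), which changed with the array left out. COB, needed for oriented cellulose deposition, stayed between 11.19 and 12.05 over the group means. Of the brassinosteroid genes that were looked for because of EXO, BRL1, a brassinosteroid receptor, had a probe set of its own, at the lowest value in all groups, and the others were not analysed here.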

How the data were processed

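The authors deposited log2 intensities, 1 value per probe set and array; GCOS and RMA are named, without versions, per the submitters' processing notes, and other steps are not given in the sources used here. The median log2 intensity was 5.01 to 5.31 per array. After 64 array controls were left out, 22746 probe sets were tested. Of these 13513 had 1 gene in the platform annotation, 503 several and 8730 none, and 13436 were matched to RefSeq (TAIR10.1), used for names and neighbours only.

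A linear model with 4 group means, and no block, was fitted per probe set with limma 3.58.1 in R 4.3.3 (residual degrees of freedom 4, prior 0.409), with two-sided Benjamini-Hochberg adjusted p-values. The fit was tested on 1 simulated data set per contrast, with the same spread in all 4 groups. False calls were 11 of 151 for salt in M6PR and 5 of 124 for salt in Col. They were 7 of 138 for the lines at 0 mM, 22 of 146 at 100 mM and 6 of 108 for the interaction. All but salt in Col were thus above the threshold. With 1 draw each, the contrasts cannot be ranked, and unequal spread between groups was not simulated. P-values measure the spread between pots, taken per probe set as 1 value shared by all 4 groups. Replicates were not equally close in each group: the median absolute difference above background was 0.15 in Col 0 mM and 0.36 in M6PR 100 mM. The genes and lists were chosen with earlier results of these data known. Named besides the 4 genes are up to 3 called genes per direction, list and contrast, the EXLA, EXLB and XTH17 to XTH20 groups, and the genes most alike by Pearson r; AT3G15450 and AR781 were given values, and EXPA8, EXPA20, XTH16, XTH33, CSLC04 and COB named, after values were seen. Alternatives were a dim filter of 25%, quantile normalization, median centring, another prior, a replicate block, only the arrays compared, a minimum change of 2-fold, other background levels and leaving out each array.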

Additional observations from a re-analysis of the deposited data

Results flagged for a closer look

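In M6PR every salted array lay below every unsalted one for EXLA1, EXLA2 and EXO, while in Col every salted array lay above every unsalted one. Of all probe sets, 15.7% had non-overlapping lower arrays for salt in M6PR and 12.7% higher ones, and 23.7% had higher ones for salt in Col. The share with opposite orders in the lines was not counted, so nothing is read from these orders. The salt difference in M6PR minus that in Col was −8.24 for EXLA1 (SE 0.69), −6.61 for EXO (SE 0.85) and −3.95 for EXLA2 (SE 1.06), for which no test is given because the genes were chosen on contrasts that enter it. Without M6PR 100 mM replicate 1 these values were −7.63, −5.93 and −2.88. XTH18 showed the same opposite order (−6.10, limma adjusted p 0.176 for the interaction), and EXGT-A3 a small one (−0.69, limma adjusted p 0.543). The reverse order, with salted arrays above unsalted ones in M6PR and below them in Col, was seen for EXPA8 (4.59, limma adjusted p 0.103), EXPB1 (3.70, limma adjusted p 0.0813), EXPA4 (2.12, limma adjusted p 0.0883) and XTH32 (1.81, limma adjusted p 0.0641). Without M6PR 100 mM replicate 1 the values were −4.39 for XTH18 and −0.72 for EXGT-A3. They were 4.17 for EXPA8, 3.29 for EXPB1, 1.76 for EXPA4 and 1.61 for XTH32. None of these 6 interaction tests passed with all 8 arrays. With single arrays left out, the values ran from −7.81 to −4.39 for XTH18 and from −1.155 to −0.219 for EXGT-A3. They ran from 3.75 to 5.43 for EXPA8, 3.25 to 4.15 for EXPB1, 1.76 to 2.47 for EXPA4 and 1.61 to 2.01 for XTH32. Whether a test passed changed with the array left out.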

How the results depend on the processing

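Over all alternatives the differences of the 4 genes kept their sign in 299 of 300 cases, but many of these could not change. The dim filter, another prior, the replicate block, a 2-fold minimum and only the arrays compared leave a difference as it is. So does leaving out an array outside the contrast, and the count is thus no measure of robustness. The exception was EXLA2 between the lines under salt, −0.25 without M6PR 100 mM replicate 2 and 1.87 without replicate 1. Calls over all probe sets numbered 39 for salt in M6PR, 1193 for salt in Col, 1599 between the lines at 0 mM, 31 at 100 mM and 330 for the interaction. In that order they were 116, 3491, within 1.5 times, 70 and 1025 without the dimmest 25%; 244, 4254, within 1.5 times, 139 and 1022 with centring; 2, 60, 149, 0 and 3 with a minimum of 2-fold; and 0, 792, within 1.5 times and 0 with only the arrays compared. Beside these counts of 0 by limma, 272 probe sets had an unadjusted p under 0.05 at 100 mM with a minimum of 2-fold, and with only the arrays compared 1975 had one for salt in M6PR and 1375 at 100 mM. With centring 46 were higher and 198 lower for salt in M6PR (2 and 37 as deposited), 1388 and 2866 for salt in Col (512 and 681), 77 and 62 at 100 mM (8 and 23), and 470 and 552 for the interaction (118 and 212). Single arrays left out gave 10 to 829, 253 to 2607, 533 to 1824, 7 to 1212 and 248 to 2234. Expansin, XTH and EXO calls (0, 4, 9, 0 and 1) were 11 for salt in Col and 6 for the interaction without the dimmest or with centring, 1, 2 and 0 for salt in Col, the lines at 0 mM and the interaction with a minimum of 2-fold, and 2 for the interaction after quantile normalization; single arrays left out gave 0 to 4, 0 to 11, 1 to 9, 0 to 4 and 0 to 12. The family counts with all 8 arrays include the chosen genes: 3 of 4 calls for salt in Col, 3 of 9 at 0 mM and the 1 for the interaction. To that extent they describe the choice and test nothing. With the replicate block the calls over all probe sets were 13, 497, 970, 3 and 53, and 0 family genes for the interaction. Swapping the Col 100 mM numbers, chosen after seeing the data, gave 3 between the lines under salt. The r of same-number deviations was 0.49 between the M6PR groups and −0.15 to 0.08 in the other pairs of groups. The labels do not say whether a replicate number marks anything shared, and a pairing within M6PR was not tested further. Of the 8 genes most alike, 4 were shared by group means and 3 without M6PR 100 mM replicate 1. EXLA1's lower bounds were 102 and 483 with a background of log2 3 and 25.8 and 123 with log2 5. The cause of these changes was not tested. No other probe set of the 4 genes could be tried, since each has 1.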
